A study of Trichoderma reesei with 15 samples.

Results

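The genes described here are 266 of the 10879 genes of Trichoderma reesei in the deposited count table, chosen by their levels in the parent strain, which were high in replicate 1 and low in replicate 2. A gene was taken when its CPM (its count over the library total, scaled to a total of 1e6) plus 1 was at least 4 times as high in parent DD1 replicate 1 as in parent DD1 replicate 2, and at least 2 times as high in parent DD3 replicate 1 as in parent DD3 replicate 2. It also needed at least 10 CPM in parent DD1 replicate 1 and a mean under 1000 CPM over the 4 parent libraries. The parent libraries thus selected the genes, and their values are given only as a description. The results below concern the 11 libraries of the deletion strains, which the choice did not use.

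T. reesei is a filamentous fungus that secretes cellulases, and the series asks what protein phosphatases do in their regulation. All strains carry a deletion of mus53, which serves non-homologous end joining, and the deletion strains lack pp2A, pph5 or pph5-2 in addition. The groups were Δpp2A with the tag DD1 (4 libraries), Δpph5 with the tag DD1 (3 libraries), Δpph5-2 with the tag DD3 (4 libraries), and the parent QM6aΔmus53 with the tag DD1 (2 libraries) and with the tag DD3 (2 libraries). Mycelium was grown on cellulose as the carbon source for 96 h at 28 °C in constant darkness. The sources used here do not give what the tags stand for, how many transformants stand behind each deletion strain, or whether replicates were grown as separate cultures. The spread that p-values measure is thus that of these libraries and may be technical. The type given for Δpp2A replicate 1 is WT, against the pp2A deletion in its title and strain fields, and for the Δpph5-2 libraries the strain fields name the pph5 deletion. The titles decided the groups.

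Serine/threonine protein phosphatases remove phosphate groups that kinases have placed on proteins. PP2A enzymes join a catalytic subunit with a scaffold and an exchangeable regulatory subunit, and PP5 enzymes carry tetratricopeptide repeats beside the catalytic domain. In filamentous fungi growing on an insoluble substrate such as cellulose, sets of genes for nutrient use, secretion, development and secondary metabolism change together as a culture proceeds. The table pairs its identifiers with no gene names, and 0 of them matched the reference gene table used here, so no function is given to any of the 266 genes, and the labelled mycelium could not be checked against marker genes.

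Library totals were 7862390 to 11134647 counts in Δpp2A, 6026511 to 9842288 in Δpph5, 8990198 to 13572121 in Δpph5-2, 9310996 and 9906943 in the DD1 parent, and 9733138 and 10499078 in the DD3 parent. For each deletion strain 1 identifier is a candidate for the deleted gene, and none of these belongs to the 266 genes. TrG1101W had 0 to 4 counts per library in Δpp2A, including replicate 1 with its type of WT, and at least 197 in each other library. TrE1020W had 0 counts in every Δpph5 library and at least 973 in each other library, including those of Δpph5-2. TrE0027W had 0 counts in every Δpph5-2 library and at least 84 in each other library.

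The 266 genes stood at very different levels in libraries of the same deletion strain. Their median was 15.3 CPM in Δpph5 replicate 1, 125 CPM in replicate 2 and 110 CPM in replicate 3 (109.8 before rounding). In Δpph5-2 the medians were 13.1, 11.5 and 8.62 CPM in replicates 1 to 3 and 34.6 CPM in replicate 4. In Δpp2A they were 11.9, 12.0, 22.4 and 13.5 CPM in replicates 1 to 4. In the parents, which chose the genes, the medians were 110.1 and 7.67 CPM with the tag DD1 and 62.8 and 9.76 CPM with the tag DD3. Among the deletion libraries, Δpph5 replicates 2 and 3 thus had the highest medians, and Δpph5-2 replicate 4 and Δpp2A replicate 3 came next. The other 7 deletion libraries lay at 8.62 to 15.3 CPM. The parents' medians follow from the choice of the genes, so the deletion libraries are not placed by them. The median over all 8651 genes tested moved little by comparison, between 31.0 and 41.5 CPM over the 11 deletion libraries.

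**Figure D1:**
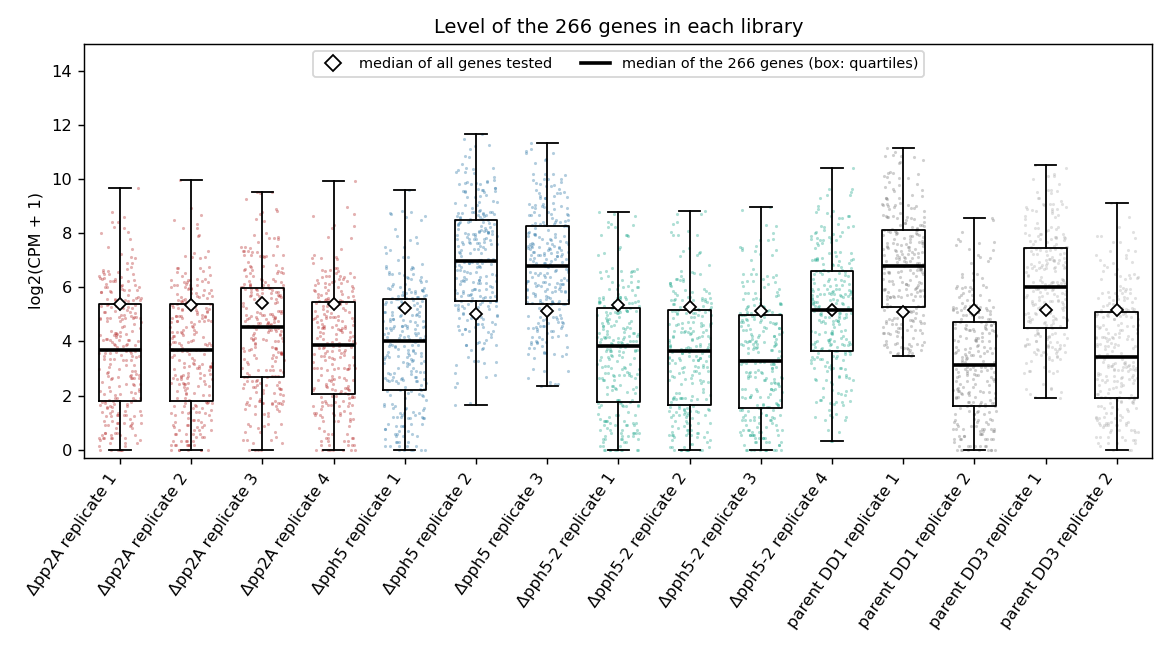
Level of the 266 genes in each of the 15 libraries as log2(CPM + 1), where each point is a gene, each box gives the quartiles and the median, whiskers reach the furthest point within 1.5 box lengths, and open diamonds give the median of all genes tested. Δpph5 replicates 2 and 3, with medians of 125 and 109.8 CPM, stand above the other deletion libraries, Δpph5-2 replicate 4 and Δpp2A replicate 3 are intermediate, and the 4 parent libraries at the right chose the genes.

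The share of all counts that fell on these genes was highest in the same 4 deletion libraries. The genes took 1.16% of the counts in Δpph5 replicate 1, 8.19% in replicate 2 and 6.94% in replicate 3. They took 0.952%, 0.882%, 0.808% and 2.45% in Δpph5-2 replicates 1 to 4, and 1.01%, 0.994%, 1.59% and 1.03% in Δpp2A replicates 1 to 4. Of the 266 genes, 253 and 256 reached 10 CPM in Δpph5 replicates 2 and 3, against 155 in replicate 1. Between 142 and 176 did so in the Δpp2A libraries, and between 128 and 205 in the Δpph5-2 libraries. Such a bulk measurement cannot tell fewer cells with these transcripts from less RNA of them per cell.

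Depth differed between the Δpph5 libraries as well: replicate 2 had the smallest total of the series, 6026511 counts, replicate 3 had 8496557 and replicate 1 had 9842288. The number of genes with at least 1 count was 9365 and 9299 in replicates 2 and 3 and 9728 in replicate 1. The part of depth in the difference was not tested. In Δpph5-2 the order was another one, as replicate 4, the highest of its group for these genes, had 12142499 counts and the most genes with counts of all libraries, 9840.

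Within each deletion group the libraries were far apart for many of the 266 genes. In Δpph5, 208 of the 266 genes (78.2%) were at least 4-fold apart between the highest and the lowest library in CPM + 1, against 5.83% of all genes tested. In Δpph5-2 the count was 111 (41.7%) against 3.13%, and in Δpp2A it was 30 (11.3%) against 1.26%. For these genes the median ratio of highest to lowest library was 7.94 in Δpph5, against 1.58 for all genes tested. It was 3.35 against 1.36 in Δpph5-2, and 1.71 against 1.23 for Δpp2A libraries. Each count rested on 1 library: it was 2 without Δpph5 replicate 1 (0.752%, against 0.197% of all genes tested), 10 without Δpph5-2 replicate 4 (3.76%, against 1.53%) and 1 without Δpp2A replicate 3 (0.376%, against 0.116%). Among genes that reached 10 CPM in at least 1 library of the group, the shares were 78.2%, 45.0% and 14.0% of these genes in Δpph5, Δpph5-2 and Δpp2A, against 6.45%, 3.18% and 1.22% of all such genes.

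**Figure D2:**
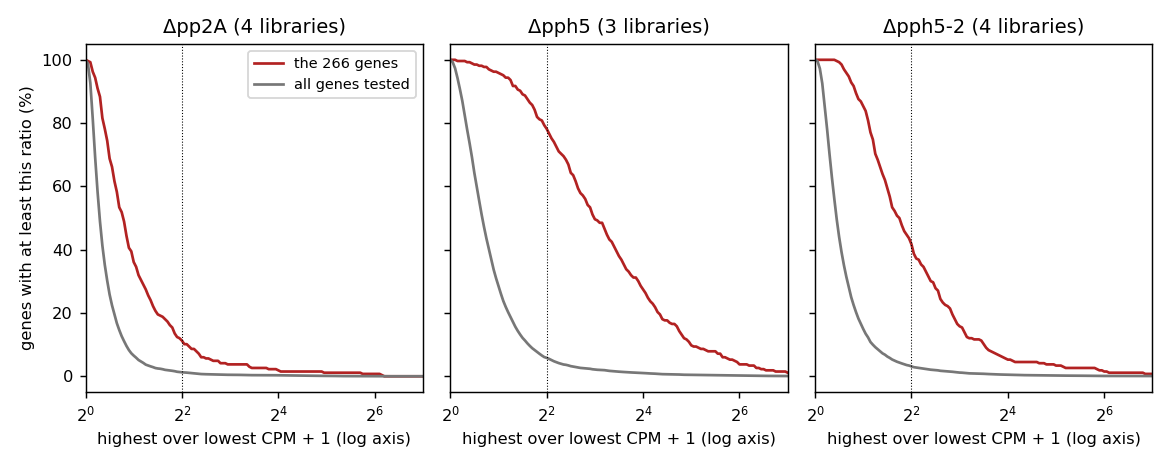
Share of genes (%) whose highest over lowest CPM + 1 among the libraries of 1 deletion group is at least the ratio on the horizontal log axis, for the 266 genes (red) and all 8651 genes tested (grey), with a dotted line at 4-fold. The red curve lies above the grey one in each panel, and at 4-fold it stands at 11.3% (Δpp2A, left), 78.2% (Δpph5, middle) and 41.7% (Δpph5-2, right).

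Within each group most of the genes had the same library on the high side, with a larger majority in Δpph5 and Δpph5-2 than in Δpp2A. In Δpph5, 262 of the 266 genes were higher in replicate 2 than in replicate 1, against 29.2% of all genes tested, and 263 were higher in replicate 3 than in replicate 1, against 32.9%. At least 4-fold differences were seen for 199 genes (74.8%) between replicates 2 and 1, and for 185 genes (69.5%) between replicates 3 and 1, against 3.62% and 3.03% of all genes tested. Replicates 2 and 3 differed by at least 4-fold in only 2 of the 266 genes, 1 in each direction. In Δpph5-2, 244, 255 and 264 of the 266 genes were higher in replicate 4 than in replicates 1, 2 and 3, while 32.4%, 34.5% and 44.7% of all genes tested were. In Δpp2A, 218, 216 and 215 genes were higher in replicate 3 than in replicates 1, 2 and 4, which is 82.0%, 81.2% and 80.8%, against 47.0%, 46.3% and 46.3% of all genes tested, and the median ratio was only 1.32 to 1.46. These replicates were singled out after their values were seen.

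Over the 11 deletion libraries, Δpph5 replicate 2 held the highest CPM for 196 of the genes and Δpph5 replicate 3 for 59. For 247 of the genes (92.9%) these were the 2 highest libraries of the 11, against 13.2% of all genes tested. A Δpp2A library was the highest for 9 genes, Δpph5-2 replicate 4 for 1 and Δpph5 replicate 1 for 1. The lowest library was Δpph5-2 replicate 3 for 104 genes, and neither Δpph5 replicates 2 and 3 nor Δpph5-2 replicate 4 was the lowest for any of them.

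The size of the difference was related, from gene to gene, between parents and deletion strains. Across the 266 genes the log2 ratio of parent DD1 replicate 1 over 2 correlated with that of Δpph5 replicate 2 over 1 at r = 0.662 (Spearman's rho 0.626), with that of Δpph5-2 replicate 4 over 1 at r = 0.669 (rho 0.543), and with that of Δpp2A replicate 3 over 1 at r = 0.436 (rho 0.270). The ratios of Δpph5 replicate 2 over 1 and Δpph5-2 replicate 4 over 1, which share no library and no tag, correlated at r = 0.678 (rho 0.698). Over all 8651 genes tested the first 3 correlations were 0.738, 0.522 and 0.316, and the last was 0.616. Genes are no independent replicates, each ratio rests on 2 libraries, and ratios of the same strain share libraries, so the correlations are descriptions. The parent ratio is also the value on which the 266 genes were selected, and the replicates set against each other in the deletion strains were picked after their values were seen, so the relation within the 266 genes supports nothing further.

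**Figure D3:**
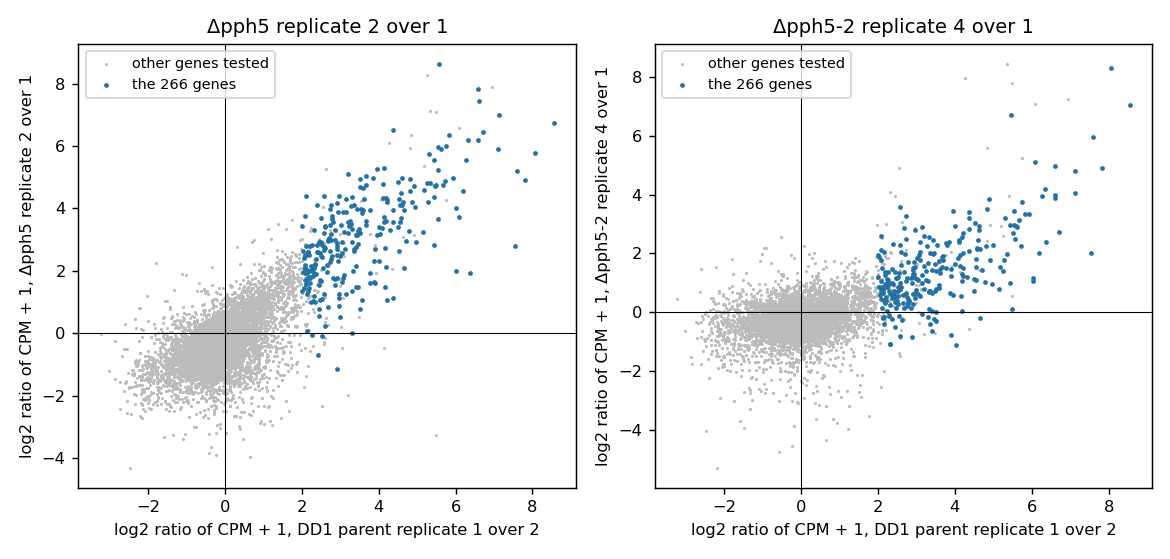
Log2 ratio of CPM + 1 between Δpph5 replicates 2 and 1 (left, vertical axis) and between Δpph5-2 replicates 4 and 1 (right, vertical axis) against that between DD1 parent replicates 1 and 2 (horizontal axis), with the 266 genes in blue and the other genes tested in grey. The sharp left edge of the blue points is the limit of 4-fold used to choose the genes, and 262 of them lie above 0 in the left panel and 244 in the right.

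Similar limits can be set on the Δpph5 libraries. These were at least 4-fold higher CPM + 1 in both Δpph5 replicates 2 and 3 than in replicate 1. At least 10 CPM in replicate 2 was also required. Of all 10879 genes 231 met these limits, which were set after the Δpph5 values were seen, so the overlap is a description. Of the 231 genes, 169 belonged to the 266 genes, which is 63.5% of the 266 and 73.2% of the 231. In the 62 genes that did not belong, parent DD1 replicate 1 was also above replicate 2 each time, against 37.0% of all genes tested, with a median ratio of 4.12. They missed the limit for the DD1 parents (31 genes), that for the DD3 parents (34 genes), the upper limit on the mean (16 genes) or the level in parent DD1 replicate 1 (4 genes), some more than 1 of these. The 97 genes of the 266 that did not meet the limits in Δpph5 had a median ratio of 3.34 between Δpph5 replicates 2 and 1.

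Single genes show how wide the differences were. Among the 7 Δpph5 and Δpph5-2 libraries, the largest ratios of highest to lowest CPM + 1 were those of TrB1722C, 1218-fold, and TrA0224W, 1134-fold, with listed lengths of 267 and 447 bases. TrA0224W had 4.22, 2.04, 161 and 9.23 CPM in Δpp2A replicates 1 to 4. It had 21.5, 2386 and 1675 CPM in Δpph5 replicates 1 to 3 and 1.95, 1.11, 4.56 and 393 CPM in Δpph5-2 replicates 1 to 4, against 1849 and 3.94 CPM in the DD1 parent and 752 and 29.3 CPM in the DD3 parent. One library of Δpp2A, 1 of Δpph5-2 and 2 of Δpph5 were thus far above the rest of their groups, and the groups overlapped. TrB1722C had the same high libraries, with 184 CPM in Δpp2A replicate 3 and 1.53 to 11.03 CPM in the other Δpp2A libraries, 1878 and 1530.4 CPM in Δpph5 replicates 2 and 3 and 33.2 CPM in replicate 1, and 481 CPM in Δpph5-2 replicate 4 and 0.543 to 35.9 CPM in the other Δpph5-2 libraries.

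The smallest ratios among the same 7 libraries were 2.201 for TrC0999W and 2.46 for TrF0251C. TrC0999W had 55.1, 72.8, 66.9 and 72.5 CPM in Δpp2A, 40.0, 58.9 and 71.9 CPM in Δpph5 and 32.1, 33.3, 41.9 and 52.9 CPM in Δpph5-2, against 138 and 24.4 CPM in the DD1 parent and 56.8 and 23.4 CPM in the DD3 parent. Within Δpph5 replicate 1 was again the lowest and within Δpph5-2 replicate 4 the highest, on a narrow range. TrF0251C ranged from 13.2 to 16.8 CPM in Δpp2A, from 8.13 to 20.9 CPM in Δpph5 and from 7.90 to 11.4 CPM in Δpph5-2.

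The highest mean CPM over the 11 deletion libraries belonged to TrC0886C, TrB1448W, TrE0834W and TrA0027W, with 749, 743, 735 and 713 CPM. Per 1000 bases of listed length, the order was TrE0834W with 1513 CPM, TrB1448W with 452, TrA0027W with 346 and TrC0886C with 256. TrC0886C had 301, 293, 446 and 315 CPM in Δpp2A, 435, 2242 and 2088 CPM in Δpph5 and 398, 454, 463 and 804 CPM in Δpph5-2, against 1885 and 362 CPM in the DD1 parent and 1101 and 383 CPM in the DD3 parent. Its lowest Δpph5 library was within the range of Δpp2A in CPM on library totals, though not in CPM scaled by edgeR's TMM factors. By edgeR TrC0886C was lower in Δpp2A than in Δpph5 (adjusted p = 0.00507). TrA0027W had 82.5, 67.5, 727 and 81.6 CPM in Δpp2A, 215, 2870.5 and 2221 CPM in Δpph5 and 38.5, 37.9, 151 and 1348 CPM in Δpph5-2, so that libraries of all 3 deletion groups overlapped, and the difference between Δpp2A and Δpph5 was not called (adjusted p = 0.104 by edgeR). TrE0834W had 387, 408, 616 and 418 CPM in Δpp2A, 355, 2490.0 and 2008 CPM in Δpph5 and 238, 242, 255 and 674 CPM in Δpph5-2. TrB1448W had 440.3, 485, 712 and 504 CPM in Δpp2A, 392, 1806 and 1732 CPM in Δpph5 and 438, 419, 500.2 and 746 CPM in Δpph5-2. Both were lower in Δpp2A than in Δpph5 by edgeR (adjusted p = 0.0210 for TrE0834W and 0.0215 for TrB1448W) although in CPM on library totals Δpph5 replicate 1 lay below all 4 Δpp2A libraries. In CPM scaled by TMM factors Δpph5 replicate 1 still did so for TrB1448W, but was within the range of Δpp2A for TrE0834W. Neither call held without Δpph5 replicate 2 or 3 or without Δpp2A replicate 1, 2 or 4, with adjusted p-values of up to 0.0981 for TrE0834W and 0.0980 for TrB1448W over 19 alternatives each.

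**Figure D4:**
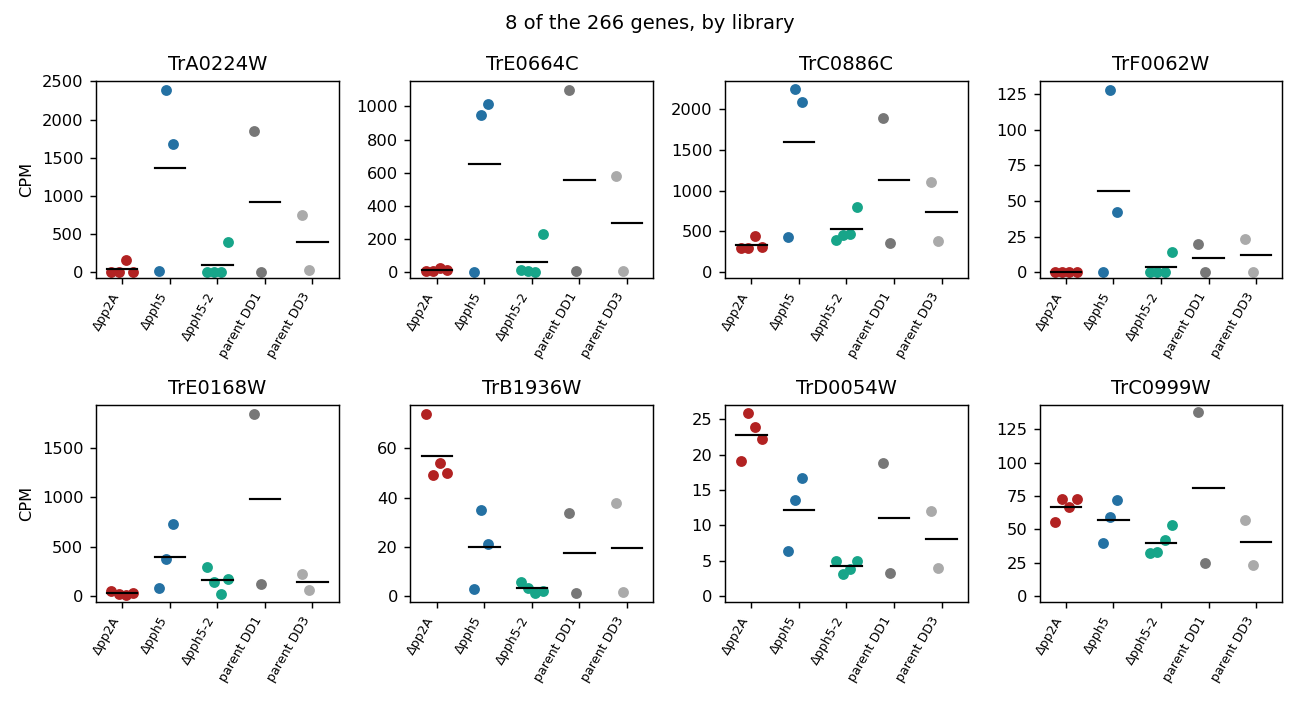
CPM of 8 of the 266 genes in each library, as points placed by replicate number from left to right, with a bar for the mean of the group; the vertical axes are linear and differ between panels. The panels of TrA0224W, TrE0664C, TrC0886C and TrF0062W show 2 high Δpph5 libraries and 1 high Δpph5-2 library. In TrE0168W the highest Δpph5-2 library is replicate 1. TrB1936W and TrD0054W have their highest group means in Δpp2A. TrC0999W varies less among the deletion libraries than between the DD1 parent libraries.

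Whether the groups differed was tested among the deletion strains with edgeR's quasi-likelihood test on the 11 libraries, without the parents. Benjamini-Hochberg adjustment ran over the 8651 genes that passed a filter on low counts, and genes under 0.05 were called. Of the 266 genes 263 passed the filter. The 3 others, TrD1007C, TrF0252W and TrG0638W, had 4.71 to 27.5 CPM in Δpph5 replicates 2 and 3 and under 1 CPM in each other deletion library.

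Δpp2A and Δpph5 share the tag DD1. Of the 263 genes, 212 (80.6%) were lower in Δpp2A and 0 were higher, whereas 23.6% of all genes tested were called lower and 16.0% higher (39.6% in either direction). The median log2 fold change of the 263 genes was -2.84, against -0.04 for all genes tested. Besides the count of 0 called higher, an unadjusted p under 0.05 with a higher level in Δpp2A was reached by 0 of the genes, and DESeq2 called 0 higher and 228 lower, with 18.9% of all genes tested higher and 25.5% lower in its fit. By edgeR 1 of the genes was called higher with the libraries of the 2 groups only, against 13.9% of all genes. Without Δpph5-2 replicate 3 it was also 1, against 15.5%. The libraries of the 2 groups nevertheless overlapped for most of these genes, as they did for most of all genes tested. With libraries set against each other in CPM scaled by edgeR's TMM factors, all Δpp2A libraries lay below all Δpph5 libraries for 67 of the 263 (25.5%), against 19.4% of all genes tested. For 145 of the 212 called genes the libraries overlapped, and the same was not counted over all called genes. All Δpp2A libraries lay above for 1 gene, TrB1130W, which is named here after its values were seen, against 19.8% of all genes tested. In CPM on library totals, without TMM factors, they lay below for 55 genes and above for 4, against 9.42% and 36.9% of all genes tested. Δpph5 replicates 2 and 3 lay above all Δpp2A libraries for 256 and 255 of the 263 genes (97.3% and 97.0%), against 43.0% and 42.3% of all genes tested, and below them for 2 and 5, against 40.1% and 39.1%. Δpph5 replicate 1 lay above them for 68 genes, against 34.1% of all genes tested, and below them for 70, against 34.2%.

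The count of genes called lower in Δpp2A changed with the Δpph5 libraries. It was 89 of 263 (33.8%) without Δpph5 replicate 2 and 132 (50.2%) without replicate 3, with 13.1% and 14.2% of all genes called lower in the same fits. Without Δpph5 replicate 1 it was 244 of 266 (91.7%), against 29.8% of all genes. Without Δpp2A replicate 1, whose type label reads WT, it was 145 (55.1%), against 17.2% of all genes, and without Δpp2A replicate 2 or 4 it was 151 each (57.4%), against 17.4%. When scaled by library size alone, all genes had a median log2 fold change of 0.30 in place of -0.04, and 200 of the 263 genes were lower (76.0%) and 1 was higher. The split of all genes turned round under that scaling, with 13.2% called lower and 33.3% higher, and upper quartile scaling gave 18.4% lower and 19.8% higher, with 207 of the 263 genes lower and 0 higher.

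By fold change, TrF0062W and TrC0099C were the lowest of the genes called. TrF0062W had 1, 1, 0 and 1 counts in the 4 Δpp2A libraries and 4, 769 and 359 counts in the 3 Δpph5 libraries. The mean of 56.8 CPM in Δpph5 was 721-fold the pooled Δpp2A level of 0.0788 CPM, with 247 to 3494.5 as the range given by the 95% exact Poisson interval of the Δpp2A counts, which covers counting error only (adjusted p = 0.0103 by edgeR). TrC0099C had 2, 1, 0 and 1 counts in Δpp2A and 2, 267 and 488 counts in Δpph5. Its Δpph5 mean of 34.0 CPM was 324-fold the pooled Δpp2A level of 0.105 CPM, with a range of 126 to 1188 from the same kind of interval (adjusted p = 0.0130 by edgeR). For TrC0099C Δpph5 replicate 1, at 0.203 CPM, lay within the interval of the pooled Δpp2A level, 0.0286 to 0.269 CPM. For TrF0062W Δpph5 replicate 1, at 0.406 CPM, lay above that interval, 0.0162 to 0.230 CPM, but on only 4 counts. For both genes the fold rests on Δpph5 replicates 2 and 3. In Δpph5-2 both were near 0 in replicates 1 to 3 and at 14.2 and 13.4 CPM in replicate 4.

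Between Δpp2A and Δpph5-2, 6 of the 263 genes (2.28%) were lower and 7 (2.66%) were higher in Δpp2A, against 12.2% and 10.7% of all genes tested (22.9% in either direction). Scaled by library size alone, 6 of the genes were lower and 10 higher, against 7.12% and 15.8% of all genes. The tags differ here, so strain and tag cannot be told apart. The Δpp2A libraries all lay above the Δpph5-2 libraries for 14 of the genes (5.32%) and below them for 15 (5.7%), against 18.2% and 17.9% of all genes tested. The median log2 fold change of the 263 genes was -0.43 (all genes: -0.01), and without Δpph5-2 replicate 4 it was 0.32. The median standard error was 0.74 for these genes and 0.17 for all genes tested, so that small differences in them were not detectable. The count of 13 called genes became 6, 5 and 5 without Δpp2A replicates 1, 2 and 4, with 15.8% of all genes called in each of these fits, and 7 without Δpph5-2 replicate 2, with 18.7%. Without Δpph5 replicate 1, a library of the third strain, it was 32 of 266 genes, with 32.6% of all genes called, and the cause was not tested. All 6 genes called lower were among the 212 called lower than in Δpph5, but those 212 are 80.6% of the 263 genes. None of the 7 called higher was called against Δpph5, where 51 of the 263 genes were not called. The same overlaps were not counted over all genes.

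The 2 genes with the highest fold changes were TrB1936W and TrD0054W. TrB1936W had 74.1, 49.1, 53.9 and 50.0 CPM in Δpp2A and 5.75, 3.39, 1.11 and 2.14 CPM in Δpph5-2 (edgeR log2 fold change 4.03 with SE 0.72 and adjusted p = 0.00294). TrD0054W had 19.1, 25.9, 23.9 and 22.3 CPM in Δpp2A and 4.88, 3.09, 3.78 and 5.02 CPM in Δpph5-2 (edgeR log2 fold change 2.26 with SE 0.33 and adjusted p = 0.000911). The groups did not overlap for either gene, and both calls held in each of the 19 alternatives. In Δpph5 TrB1936W had 2.95, 35.01 and 21.2 CPM and TrD0054W had 6.30, 13.6 and 16.7 CPM. In these CPM on library totals they lay below every Δpp2A library, but with TMM factors both genes overlapped: TrB1936W was at 45.4 in Δpph5 replicate 2 and at 43.6 in Δpp2A replicate 2, and TrD0054W was at 19.7 in Δpph5 replicate 3 and at 17.05 in Δpp2A replicate 1. Neither was called between Δpp2A and Δpph5 (adjusted p = 0.230 for TrB1936W and 0.262 for TrD0054W by edgeR).

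On the other side, TrE0168W had 48.0, 19.3, 11.2 and 27.8 CPM in Δpp2A and 297, 141, 24.9 and 172 CPM in Δpph5-2 (edgeR log2 fold change -2.73 with SE 0.84 and adjusted p = 0.0426), with Δpph5-2 replicate 3 inside the range of Δpp2A. TrA1877C had 1.44, 2.42, 11.3 and 3.83 CPM in Δpp2A and 15.8, 17.2, 17.5 and 24.2 CPM in Δpph5-2, without overlap (edgeR log2 fold change -2.15 with SE 0.62 and adjusted p = 0.0326). Both calls were close to the threshold. That of TrA1877C was lost without any of Δpp2A replicates 1, 2 and 4 or Δpph5-2 replicates 2, 3 and 4, with adjusted p-values between 0.00145 and 0.0890 over its 19 alternatives. That of TrE0168W was lost in 11 of 19 alternatives, among them leaving out any Δpp2A replicate, Δpph5 replicate 2 or Δpph5-2 replicates 1, 2 or 4, with adjusted p-values between 0.00480 and 0.108. Both genes were also lower in Δpp2A than in Δpph5 (adjusted p = 0.00669 for TrE0168W and 0.00489 for TrA1877C by edgeR).

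Set against all 7 Δpph5 and Δpph5-2 libraries, the 4 Δpp2A libraries lay below for 14 of the 263 genes (5.32%) and above for 1 (0.38%), where 11.8% of all genes tested lay below and 11.8% above. Without Δpp2A replicate 3 the genes below numbered 44 (16.7%), against 14.9% of all genes tested, and without Δpph5-2 replicate 3 they numbered 25 (9.51%), against 12.6%. Without Δpph5 replicate 2 the genes above numbered 5 (1.9%), against 12.5%, and without Δpp2A replicate 1 they numbered 2 (0.76%), against 12.8%. Δpph5 replicate 1 lay within the range of the Δpp2A libraries for 125 of the 263 genes. It lay below that range for 26.6% of them and above for 25.9%, against 34.2% and 34.1% of all genes tested. Δpph5-2 replicates 1, 2 and 3 lay within the range for 131, 97 and 97 genes. They lay below all Δpp2A libraries for 93, 117 and 131 (35.4%, 44.5% and 49.8%), against 33.3%, 34.7% and 38.2% of all genes tested. Above all Δpp2A libraries they lay for 14.8%, 18.6% and 13.3% of the 263 genes, against 33.6%, 34.2% and 35.9% of all genes tested. Δpph5-2 replicate 4 lay above all Δpp2A libraries for 217 genes (82.5%), against 38.2% of all genes tested, and below them for 18, against 37.8%.

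Between Δpph5-2 and Δpph5, which differ in tag as well, 0 of the 263 genes were called by edgeR. The median log2 fold change was -2.52 (all genes: -0.01), and every one of the 263 genes had a negative one, against 50.6% of all genes tested. By edgeR 235 of the 263 genes had an unadjusted p under 0.05, all lower in Δpph5-2. Among all 8651 genes tested 2510 had one, in either direction. The smallest adjusted p among the 263 genes was 0.0529. Of all genes tested 0.347% were called in this comparison. All Δpph5-2 libraries lay below all Δpph5 libraries for 14 of the 263 genes (5.32%) and above them for 0, against 5.18% and 6.53% of all genes tested. DESeq2 called 198 of the 263 genes, all lower in Δpph5-2 (75.3%), and in its fit 12.1% of all genes tested were lower and 5.78% higher. By edgeR the count was 237 of 266 without Δpph5 replicate 1 and 178 of 252 without Δpph5-2 replicate 4, and 0 without any of the other 9 libraries. In those fits 21.5% and 6.11% of all genes tested were called lower.

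**Figure D5:**
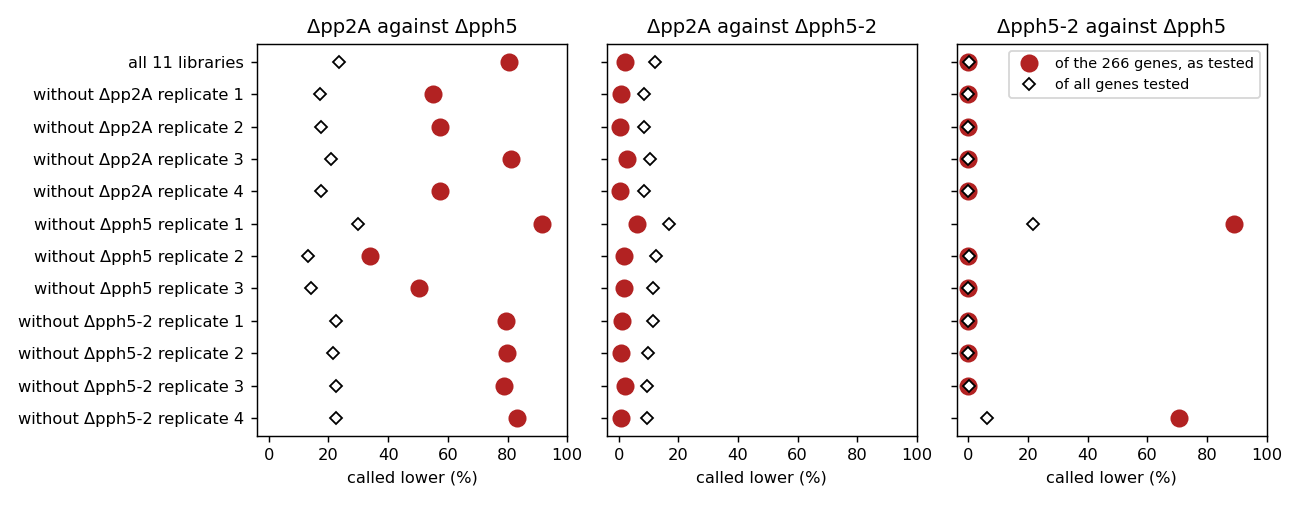
Percentage of the 266 genes that were tested (red circles) and of all genes tested (white diamonds) called lower by edgeR in the strain named first, with all 11 libraries and without each library in turn (rows). Against Δpph5 the share among the 266 genes lies between 33.8% and 91.7%, always above that of all genes, and between Δpph5-2 and Δpph5 it is 0 except without Δpph5 replicate 1 or Δpph5-2 replicate 4.

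No comparison of the deletion strains with their own parents is given for these genes, since the parent levels chose them.

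The genes were spread over the whole identifier series. After Tr, each identifier holds 1 of 7 letters, then a number, then W or C, whose meaning the sources used here do not give. The 266 genes made up 1.90% to 2.83% of the identifiers of each letter and 2.45% of all 10876. A gene with a neighbouring number that was also chosen was found for 36 of the 266 (13.5%), in 12 pairs and 4 runs of 3, whereas 4.56% of the other 10610 identifiers had a chosen neighbour. The run with the highest summed level was TrE0663W, TrE0664C and TrE0665C. TrE0664C had 8.98, 7.50, 28.5 and 13.5 CPM in Δpp2A, 3.15, 946 and 1015 CPM in Δpph5 and 14.5, 7.74, 2.89 and 228 CPM in Δpph5-2. TrE0663W spanned 112 to 181 CPM in Δpp2A, 239 to 1167 CPM in Δpph5 and 163 to 341 CPM in Δpph5-2, where replicate 1 and not replicate 4 was the highest. TrE0665C spanned 0.360 to 2.05 CPM in Δpp2A, 0.813 to 46.7 CPM in Δpph5 and 1.11 to 14.9 CPM in Δpph5-2. All 3 were lower in Δpp2A than in Δpph5 by edgeR (adjusted p = 0.00230 for TrE0663W, 0.0306 for TrE0664C and 0.0140 for TrE0665C), and that of TrE0664C was lost in 7 of 18 alternatives, among them leaving out Δpph5 replicate 2 or 3 or Δpp2A replicate 1, 2 or 4 (adjusted p between 0.0117 and 0.0773). Since the sources used here do not say whether counting used strand, reads of overlapping neighbours may have been counted for either gene.

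The listed length had a median of 1069.5 bases for the 266 genes and 1266 bases for all genes tested, with quartiles of 716 and 1559 against 801 and 1869 bases. Across the 266 genes length and the ratio of Δpph5 replicate 2 over 1 were only weakly related (Spearman's rho -0.141), and across all genes tested the value was alike (-0.132).

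At the limit of 4-fold between the DD1 parents, TrF0708W (4.004-fold) and TrD1425W (4.02-fold) were just inside, and TrD0581W (3.99-fold) and TrF0612W (3.94-fold) just outside. The 2 genes outside had the same order of libraries: TrD0581W had 274, 1368 and 1280.4 CPM in the 3 Δpph5 libraries, and TrF0612W had 51.3, 340.2 and 242 CPM there. TrF0708W had 4.57, 59.6 and 29.3 CPM in the same libraries, and TrD1425W had 8.23, 22.6 and 13.3 CPM. Without the limit for the DD3 parents 319 genes would have been taken, without that for the DD1 parents 406, without the minimum level 288 and without the upper limit on the mean 275.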

How the data were processed

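The authors deposited unnormalised counts per gene for the 15 libraries, with gene lengths. The submitters' processing notes list HISAT2 2.2.1, with no role, and the sources used here do not state counting settings, strand use, build or annotation. The labels' protocols name stranded libraries after depletion of ribosomal RNA. Of the lengths 94.7% are multiples of 3. The 3 rows named in another form held 0 counts.

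The genes, lists and tests were chosen with earlier results of these data known. CPM were taken on library totals. Tests used edgeR 4.0.16 in R 4.3.3 on counts: filterByExpr over 3 groups, TMM scaling and a robust quasi-likelihood fit on the 11 deletion libraries, with Benjamini-Hochberg adjustment. The parents were left out because they chose the genes. Genes outside the test took no more than 0.0472% of a deletion library. Counts of genes with libraries not overlapping used TMM-scaled CPM, and values per library are CPM on library totals unless stated. The code was tested on simulated data. DESeq2 1.42.0, other scalings, filters, limits and left-out libraries were alternatives. Identifiers were named by rules: extreme fold changes among called genes, highest mean CPM, nearness to the limit of 4-fold, the longest run of identifiers, and smallest and largest ratios over the Δpph5 and Δpph5-2 libraries. Figures were drawn with matplotlib 3.10.9. Intervals cover counting error only.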

Additional observations from a re-analysis of the deposited data

Results flagged for a closer look

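In groups of 4 libraries a value was set apart when its gap to the nearest library, over the range of the group, passed Dixon's 95% critical value, which chance does in about 1 in 20 sets. Of 44 sets examined 20 were set apart. This count is a description and is not set against chance, since the genes vary together and some of them were named for extreme fold changes or for the largest ratios over these same libraries. The highest library was the one apart each time: Δpph5-2 replicate 4 in 12 sets, and Δpp2A replicate 3 in 7 of the 8 sets of Δpp2A. In Δpp2A replicate 3 these were TrA0027W (727 CPM), TrA0224W (161 CPM), TrB1722C (184 CPM), TrC0886C (446 CPM), TrE0665C (2.05 CPM), TrE0834W (616 CPM) and the share of counts on the 266 genes (1.59%). TrF0708W was apart in Δpp2A replicate 1 (11.9 CPM). In Δpph5-2 replicate 4 they were TrA0027W (1348 CPM), TrA0224W (393 CPM), TrB1722C (481 CPM), TrC0099C (13.4 CPM), TrC0886C (804 CPM), TrD0581W (408 CPM), TrE0664C (228 CPM), TrE0665C (14.9 CPM), TrE0834W (674 CPM), TrF0062W (14.2 CPM), TrF0708W (15.2 CPM) and the share of counts on the 266 genes (2.45%). The Δpph5 libraries, of which there are 3, were not examined in this way.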

How the results depend on the processing

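Counts of the 266 genes called moved by more than 1.5 times as follows. Δpp2A against Δpph5 gave 111 with a limit of 8-fold between the DD1 parents, under which only 145 genes were chosen. Δpp2A against Δpph5-2, with 13 called, gave 29 with DESeq2, 5 with all 15 libraries in the fit, 29 with the libraries of the 2 groups only, 6 with the limit of 8-fold and 23 with TMM-scaled CPM in the choice of genes. Δpph5-2 against Δpph5 gave 198 with DESeq2. Of all genes, Δpph5-2 against Δpph5 gave 30, and 2 with library size only, 17 without a filter on low counts, 1543 with DESeq2, 2 with all 15 libraries and 1 with the 2 groups only. Without each library in turn, the counts of the 266 genes called were 89 to 244 (Δpp2A against Δpph5), 5 to 32 (Δpp2A against Δpph5-2) and 0 to 237 (Δpph5-2 against Δpph5), and those of all genes were 2013 to 4723, 1359 to 2866 and 2 to 3247 in the same order. Genes at least 4-fold apart within a group numbered 1 to 30 in Δpp2A, 2 to 199 in Δpph5 and 10 to 110 in Δpph5-2 when a library of that group was left out. With a pseudocount of 5 CPM they numbered 11 in Δpp2A and 64 in Δpph5-2, and with the limit of 8-fold 130 in Δpph5. Genes with all Δpp2A libraries below or above the 7 others numbered 15, and 15 to 45 without single libraries. The cause was not tested beyond the libraries named.

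Replicate numbers were not taken to pair the libraries, and the values do not settle whether they do. Of 10 same-numbered pairs 5 had deviations that correlated at over 0.1, and the range was -0.387 to 0.385. For pairs with different numbers the range was -0.661 to 0.548. With the replicate number as a block, 180, 8 and 0 of the 266 genes were called in the 3 comparisons, and 2956, 1660 and 2 of all genes.

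For the named genes 16 log2 fold changes were called, and in 61 of 299 alternatives the call was lost. Of 771 alternatives on the 41 others 46 gave a call, and in 0 cases did a called value change sign. All other alternatives kept the counts over both directions within 1.5 times. The counts of all genes in 1 direction moved further with library size only: Δpp2A against Δpph5 gave 2885 higher and 1142 lower, in place of 1381 and 2045, and Δpp2A against Δpph5-2 gave 1364 higher and 616 lower, in place of 923 and 1054. With upper quartile scaling Δpph5-2 against Δpph5 gave 25 higher and 19 lower, in place of 15 and 15.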
